A study of Mus musculus with 2 samples.

Results

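The imprinted growth network genes are 10 mouse genes that are expressed mainly from 1 parental allele and act on growth before and after birth: Igf2, Igf2r, Grb10, Plagl1, Peg3, Ndn, Mest, Dlk1, Meg3 and H19. They were taken by name, and a probe was assigned to a member when its accession was a RefSeq transcript of that gene. Of the 10 genes, 9 had a matched probe, with 18 probes and 36 spots among the 27229 probes and 20657 genes that could be named. H19 had no matched accession and is not analysed here. The values came from ATDC5, a mouse line that forms cartilage when given insulin, transferrin and selenite (ITS). One stable line expressed A-CEBP from a doxycycline-inducible transgene, and the other expressed GFP from the same kind of construct. A-CEBP is a dominant-negative partner of the C/EBP transcription factors that keeps them off DNA, and the comparison asks what differs in chondrocytes that express it. Doxycycline was given to both lines at 2 µg/mL for 2 days and ITS for 3 weeks, and each line gave 1 sample on 1 single-colour Agilent array. The labels do not say whether a line was 1 clone or a pool, and expression of neither transgene was checked. With 1 sample per group no difference had a replicate check, no p-value was computed, and the transgene, the line and the culture differ together and cannot be told apart.

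Genomic imprinting leaves a methylation mark on 1 parental copy of a control region in the germ line, and the mark silences or permits nearby genes in the offspring. In mice the paternal copy is the active one for Igf2, Plagl1, Peg3, Ndn, Mest and Dlk1, and the maternal copy for H19, Meg3, Igf2r and, in most tissues, Grb10. Many of the paternally expressed genes favour growth and several of the maternally expressed ones restrain it, and in growing tissues of young mice a number of them decline together with age. Total RNA on an array does not separate the alleles, so the values below say nothing on which copy was read.

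Of 59305 non-control spots, 34418 (58.0%) of the A-CEBP sample and 32369 (54.6%) of the GFP sample carried the scanner software's mark of a signal well above background. Levels are log2 of the processed signal minus log2 of the array's 75th percentile, which was 906 intensity units in the A-CEBP sample and 872 in the GFP sample, and differences are A-CEBP minus GFP on that log2 scale. Of 13860 named genes well above background in both, 174 were at least 2-fold higher and 236 at least 2-fold lower in A-CEBP, a balance that turned to 350 higher and 173 lower when the arrays were scaled by spike-in spots. The median difference over these genes was 0.05. Replicate spots of a probe had an SD of 0.12 in the log2 difference (root mean square over 280 probes), and different probes of a gene an SD of 0.19 (3601 genes). Such errors cover the measurement, not cultures. All 7 chondrocyte markers, among them Col2a1, Acan and Sox9, were well above background in both samples, with a median difference of 0.63 and a summed signal of 452 times the 75th percentile in A-CEBP, against 336 times in GFP. Most of that sum came from Col2a1 (364462 units in A-CEBP and 260748 in GFP). Comp alone was not higher in A-CEBP, at -0.04. In a bulk sample, fewer cells of a type and less RNA per cell cannot be told apart.

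The C/EBP factors bind forms of the motif TTGCNNAA, so RefSeq promoter windows of the members were searched for it on both strands. Each window ran from 250 bases before to 50 bases after an annotated start (mouse build GRCm38.p6), and 9 of the 10 members had one, 16 windows in all. The motif was in 2 of the 16, compared with 3547 of 32851 mouse windows (10.8%). Ndn and 1 of the 3 Mest windows held it, and those 2 are shown with the motif in capitals. They are followed by the windows of Plagl1 and Igf2r, the members read by the most probes or spots among those higher in A-CEBP, which hold no such letters and so have no capitals.
Ndn promoter, chr7:62348027-62348326, plus strand: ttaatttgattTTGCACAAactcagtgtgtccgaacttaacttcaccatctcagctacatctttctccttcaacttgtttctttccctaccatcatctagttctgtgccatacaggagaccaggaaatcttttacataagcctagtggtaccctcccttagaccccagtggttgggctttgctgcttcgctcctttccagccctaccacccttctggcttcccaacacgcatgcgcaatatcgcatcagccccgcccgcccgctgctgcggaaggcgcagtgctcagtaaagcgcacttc
Mest promoter, chr6:30733256-30733555, plus strand: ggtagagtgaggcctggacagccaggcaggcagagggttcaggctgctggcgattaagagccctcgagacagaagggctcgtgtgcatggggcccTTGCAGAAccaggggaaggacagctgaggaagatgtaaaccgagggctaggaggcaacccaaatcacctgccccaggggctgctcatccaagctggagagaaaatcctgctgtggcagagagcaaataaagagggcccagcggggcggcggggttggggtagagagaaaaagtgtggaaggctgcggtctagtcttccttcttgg
Plagl1 promoter, chr10:13090582-13090881, plus strand: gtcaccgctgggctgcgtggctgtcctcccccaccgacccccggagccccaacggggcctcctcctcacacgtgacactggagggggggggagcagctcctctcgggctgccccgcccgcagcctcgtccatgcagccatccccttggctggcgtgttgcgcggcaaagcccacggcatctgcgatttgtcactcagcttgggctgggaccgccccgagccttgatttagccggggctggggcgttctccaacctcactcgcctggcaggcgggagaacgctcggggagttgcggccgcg
Igf2r promoter, chr17:12769657-12769956, minus strand: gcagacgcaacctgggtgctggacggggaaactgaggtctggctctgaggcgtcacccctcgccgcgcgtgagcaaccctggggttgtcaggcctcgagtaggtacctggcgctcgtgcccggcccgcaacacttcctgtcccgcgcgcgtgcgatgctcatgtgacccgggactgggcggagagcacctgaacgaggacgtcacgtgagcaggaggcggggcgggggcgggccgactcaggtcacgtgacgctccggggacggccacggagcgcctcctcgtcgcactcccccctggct
The match in Ndn, TTGCACAA, began at position -239 from the start, and that in Mest, TTGCAGAA, at position -155. A match describes the letters only and is not shown to be a bound site. CpG dinucleotides, the bases that carry the imprinting mark, numbered 11 in the Ndn window, 8 in the Mest window shown, 26 in that of Plagl1 and 34 in that of Igf2r, beside a median of 7 (quartiles 3 and 20) over all windows. Over the 16 member windows the count ran from 1, in a Meg3 window, to 45, in the upstream window of Grb10. The other Grb10 window held 9.

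Among the members, most of those with a measurable level were moderately higher in A-CEBP, Mest was nearly equal in both samples and Dlk1 was lower. Of the 9 members with a probe, 6 were well above background in both samples (Igf2, Igf2r, Plagl1, Ndn, Mest and Dlk1) and 3 in A-CEBP only (Grb10, Peg3 and Meg3), where 3.26% of all named genes fell in that class. None was well above background in GFP only, the class of 0.828% of named genes. The lowest probe level well above background was -5.19 in A-CEBP and -4.73 in GFP, so these classes rest on unequal floors. Both shares are over all named genes, bright ones included, while the 3 members were dim. Of the 6, 0 differed by 2-fold or more, against 2.96% of named genes. At 1.5-fold 2 differed, against 8.51% of named genes. Of these, Plagl1 was higher and Dlk1 lower, where 4.7% of named genes were higher and 3.8% lower. The median difference of the 6 was 0.50, with 4 positive and 2 negative, whereas the median of all named genes was 0.05 and 59.1% of them were positive. Per probe, 11 were well above background in both samples, of which 2 were at least 1.5-fold higher (4.35% of 18160 probes of named genes) and 1 was lower (3.81%). These 6 genes passed the background filter and do not stand for all 10 members.

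**Figure D1:**
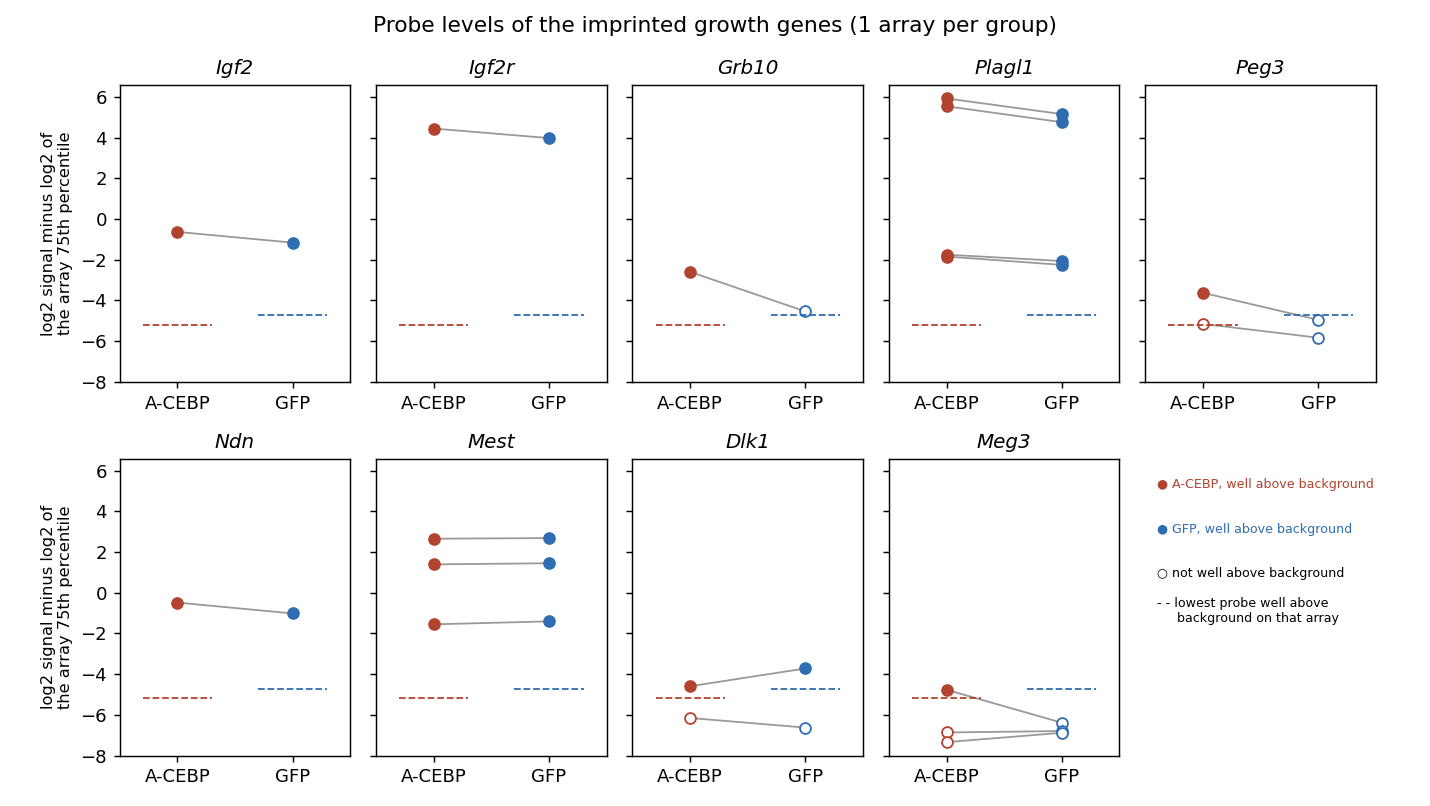
Level of each member probe (log2 signal minus log2 of the array's 75th percentile) in the A-CEBP and GFP samples, 1 array each; filled points are well above background, open points are not, and dashed lines give the lowest probe well above background on that array. Lines slope down to GFP for Igf2, Igf2r and all 4 Plagl1 probes, are nearly flat for Mest, and slope up for the brighter Dlk1 probe.

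Igf2 encodes the insulin-like growth factor that drives fetal growth through the IGF1 and insulin receptors. Its probe had a signal of 583 intensity units in A-CEBP and 390 in GFP, levels of -0.63 and -1.16. The A-CEBP sample was the higher one, by 0.53 on the log2 scale (1.44-fold, with a scanner error of 0.21). Of all named genes, 5.71% had a more positive difference. This single spot lay below the 75th percentile on both arrays, and no second Igf2 probe was there to repeat it.

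Igf2r, the cation-independent mannose 6-phosphate receptor, carries enzymes to the lysosome and takes IGF2 out of circulation for degradation. Its probe was printed 10 times, so its spread within an array could be read. The spots ran between 18774 and 20931 intensity units in A-CEBP (median 19704), against 12902 to 14674 in GFP (median 13695). All 10 spots were brighter in A-CEBP and the ranges did not overlap. The difference was 0.47 on the log2 scale (1.38-fold), with a range of 0.37 to 0.52 and an SD of 0.04 over the 10 spots, and 7.12% of named genes were more positive. These spots repeat 1 hybridised sample and are not replicates of the culture.

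**Figure D2:**
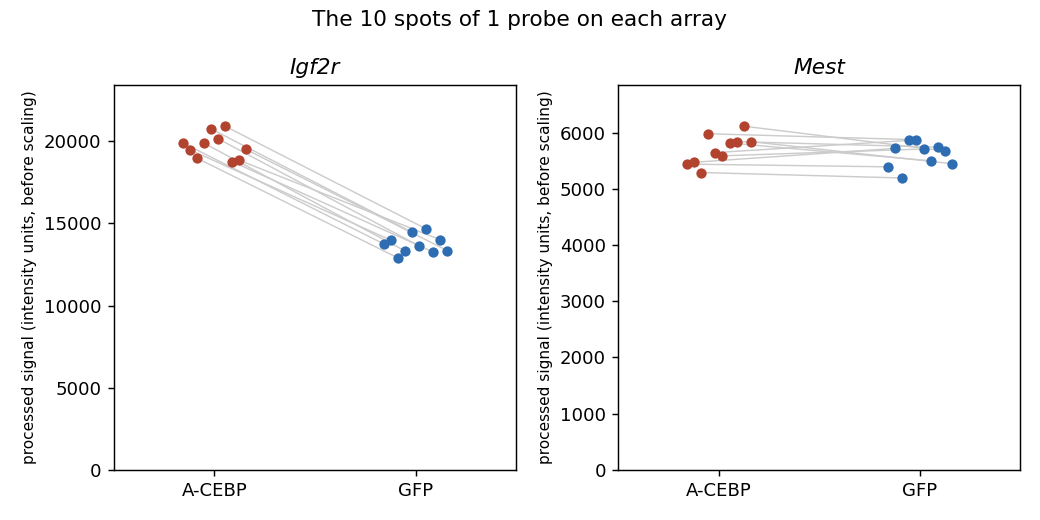
Processed signal (intensity units, linear axis from 0, before scaling) of the 10 spots of 1 Igf2r probe and of 1 Mest probe, A-CEBP left and GFP right, with a line joining the same spot position. The Igf2r spots lie at 18774 and above in A-CEBP and at 14674 and below in GFP, and the Mest spots overlap.

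Grb10 encodes an adaptor that dampens insulin and IGF receptor signalling. Its single probe read 150 intensity units in A-CEBP, where it was well above background, and 37.4 in GFP, where it was not. The A-CEBP level was 3.86-fold the GFP level, the bright reading over the dim probe's own reading (scanner error 0.40 on the log2 scale). This bound is the plain ratio of the readings, so the true difference could be smaller. With the normexp background correction the log2 bound was 0.88, against 1.95 here, and no longer reached 2-fold. Bounds of this kind set the bright value against the dim probe or against that array's lowest level among well-measured probes, whichever is higher, and take no account of error in the dim value. Of the 674 named genes in the class seen in A-CEBP only, 9.35% had a bound of 2-fold or more.

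Plagl1 (also called Zac1) encodes a zinc finger factor that, in mouse, acts on several other members of the network, Igf2 and H19 among them. It had 4 probes, all well above background in both samples and all higher in A-CEBP. The brightest gave 55021 intensity units in A-CEBP and 31079 in GFP, a difference of 0.77 (1.71-fold, scanner error 0.20). Another bright probe read 42124 in A-CEBP and 23597 in GFP, a difference of 0.78. The 2 dimmer probes had smaller differences, 0.41 (252 units in A-CEBP and 183 in GFP) and 0.31 (269 and 208 in the same order). The probes thus shared a direction, and only the 2 bright ones passed 1.5-fold. Taking the brightest probe, 2.57% of named genes were more positive.

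Peg3, a large zinc finger protein of the paternally expressed group, was dim. Its better probe read 73.2 intensity units in A-CEBP, well above background, and 28.1 in GFP, not well above it, so it was at least 2.14-fold higher in A-CEBP. With normexp the log2 bound was 0.54, which is under 2-fold. The other Peg3 probe read 25.4 in A-CEBP and 15.3 in GFP and was not well above background in either, so only 1 of the 2 probes bears on the gene. Ndn encodes necdin, a MAGE family protein known as a growth suppressor in neurons. Its probe read 647 intensity units in A-CEBP and 431 in GFP, with levels of -0.48 and -1.02. The difference of 0.53 (1.45-fold, scanner error 0.21) was the size of that of Igf2, and 5.61% of named genes were more positive.

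Mest encodes a protein with the fold of hydrolases that is abundant in embryonic mesoderm and enlarging fat. Its main probe, also printed 10 times, ran from 5295 to 6122 intensity units over the A-CEBP spots (median 5736) and from 5198 to 5883 over the GFP spots (median 5698). The ranges overlapped, and after scaling 3 of 10 spots were higher in A-CEBP. The difference was -0.03, with an SD of 0.06 over spots and a range from -0.12 to 0.05. The other 2 probes gave -0.06 (2381 units in A-CEBP and 2383 in GFP) and -0.15 (308 and 329 in the same order). None of the 3 differences exceeded its scanner error, and Mest is the member for which the main probe's sign turned with the scaling, to 0.02 without any scaling and 0.19 when scaled by spike-in spots.

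Dlk1, a transmembrane protein with EGF repeats related to the Notch ligands, holds back adipocyte formation and marks many immature cells. Its brighter probe read 37.4 intensity units in A-CEBP and 66.1 in GFP, levels of -4.60 and -3.72 that lay near the lowest probes marked well above background. Dlk1 was the member lower in A-CEBP by 1.5-fold or more, with a difference of -0.88 (1.83-fold lower, scanner error 0.39), and 2.11% of named genes were more negative. With normexp the difference was -0.41, which is under 1.5-fold. A further Dlk1 probe read 12.7 in A-CEBP and 8.83 in GFP, not well above background in either sample. Meg3, the maternally expressed noncoding RNA of the same domain, was at the edge of detection. Its best probe read 33.2 units in A-CEBP, well above background, and 10.4 in GFP, not well above it, and its bright level of -4.77 did not pass the lowest well-measured level of the GFP array, so no fold is given. The other 2 Meg3 probes read 7.75 and 5.57 in A-CEBP, against 7.84 and 7.39 in GFP, and were not well above background in either.

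**Figure D3:**
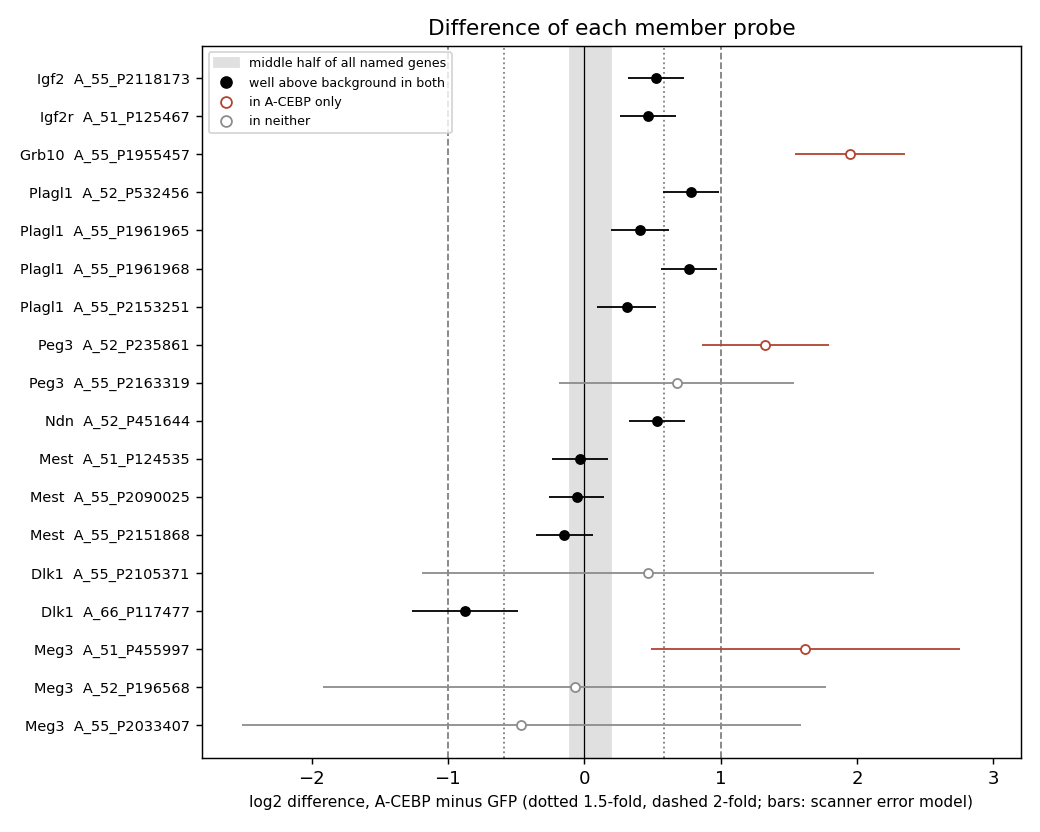
Log2 difference (A-CEBP minus GFP) of each of the 18 member probes, with horizontal bars of 1 scanner error on each side. The grey band spans the quartiles of all named genes (-0.10 to 0.19), dotted lines mark 1.5-fold and dashed lines 2-fold. Filled points are well above background in both samples; Igf2, Igf2r, Plagl1 and Ndn lie right of the band, Mest in or near it, and Dlk1 left of it.

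**Figure D4:**
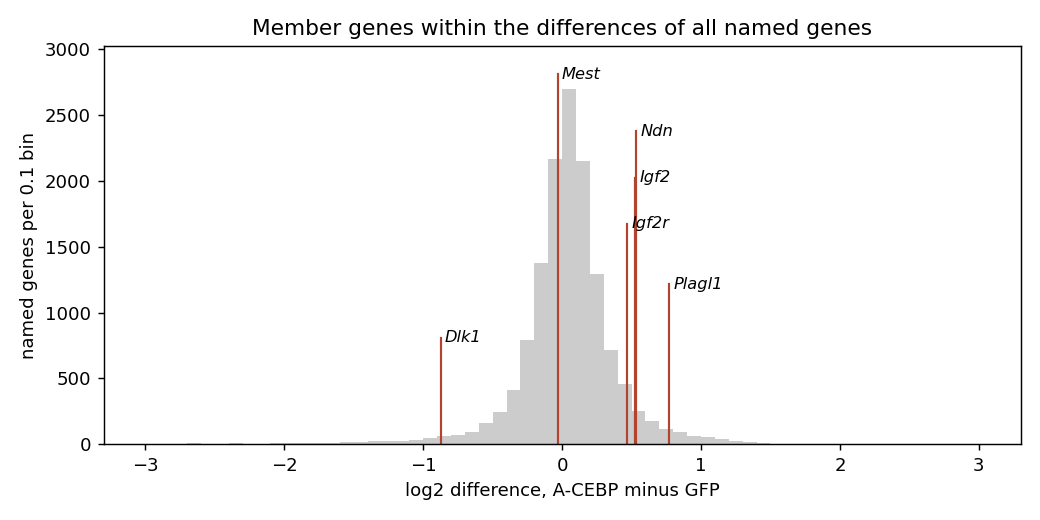
Number of named genes per 0.1 bin of log2 difference (A-CEBP minus GFP) over 13860 genes, 26 of which lie outside the plotted range; red lines of arbitrary height mark the 6 members well above background in both samples. Plagl1, Ndn, Igf2 and Igf2r lie on the right shoulder at 0.47 to 0.77, Mest lies near the centre at -0.03, and Dlk1 on the left at -0.88.

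Genes beside the members on the chromosome were read next, since imprinted genes lie in clusters. Of 39 listed neighbours, 36 had a probe and 26 were well above background in both samples; 2 of the 26 were at least 2-fold higher in A-CEBP, where 1.26% of named genes were, and 0 were at least 2-fold lower, where 1.7% were. At 1.5-fold 6 were higher and 0 lower, where 4.7% and 3.8% of named genes were. The median difference was 0.13, close to the 0.05 of all named genes. Lsp1, a leukocyte-specific actin-binding protein that lies 2 genes from H19, read 30245 intensity units in A-CEBP and 7537 in GFP, a difference of 1.95 (3.87-fold). Of the 5 leukocyte markers, 3 were well above background in both samples, with a median difference of 0.20 and a summed signal of 27.9 times the 75th percentile in A-CEBP and 24.2 times in GFP. Most of that sum came from 1 Itgam probe (22989 units in A-CEBP and 18864 in GFP), while another Itgam probe read 53.8 in A-CEBP and 76.9 in GFP, so the sum is largely that probe's reading. Ptprc and Adgre1, which define leukocytes and macrophages, were not well above background in either, and the part of such cells in the Lsp1 value was not tested.

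Ddc, the decarboxylase that makes dopamine and serotonin and the next gene to Grb10, read 1224 intensity units in A-CEBP and 388 in GFP, a difference of 1.61 (3.04-fold). Cobl, the actin nucleator on the other side of Grb10, differed by 0.63 (125 units in A-CEBP and 77.7 in GFP). Fignl1, with 1 gene between it and Grb10, differed by 0.09, and Ikzf1 was not well above background in either sample. By their brighter probes, of 1 spot each, the genes next to Grb10 were thus higher in A-CEBP on both sides. The other Cobl probe went the opposite way, at 10.7 in A-CEBP and 14.6 in GFP. The other Ddc probe read 26.4 and 14.7 in the same order. Neither of these further probes was well above background in either sample. In the Igf2-H19 neighbourhood Tnnt3, a fast muscle troponin, differed by 0.95 (84.6 units in A-CEBP and 42.3 in GFP). Its other probe, well above background in A-CEBP only, was 2.54-fold higher there as a plain ratio to its dim GFP reading. Tnnt3 is also 1 of the 5 muscle markers. Of these, 3 were well above background in both samples, with a median difference of 0.79. Their differences were unlike, with Acta1 at 0.79, Tnnt3 at 0.95 and Des at -0.06 (92.6 units in A-CEBP and 92.8 in GFP). The summed signal of the muscle markers was 0.895 times the 75th percentile in A-CEBP and 0.570 times in GFP. Myod1 and Myog were not well above background in either sample. Ins2, the insulin gene next to Igf2, and Mrpl23, a mitochondrial ribosomal protein gene next to H19, differed by 0.13 and 0.02.

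The neighbours of Plagl1 and Dlk1, the members that differed by 1.5-fold, did not share the size of their difference. Around Plagl1, Phactr2 differed by 0.18, Sf3b5 by -0.03 and Ltv1 by -0.16. In the Dlk1-Meg3 domain the noncoding RNA Mirg read 1214 intensity units in both samples (a difference of -0.05), Dio3, which inactivates thyroid hormone, differed by -0.30, Begain by 0.29, Wdr25 by 0.09 and Yy1 by 0.10. Rtl1 was not well above background in either sample and Rian had no probe. At Peg3, Usp29 and Zim1 were not well above background in either sample, and Zfp667, which lies 14 genes away, differed by 0.63 (73.1 units in A-CEBP and 45.5 in GFP). Another Zfp667 probe went the opposite way, at 16.0 in A-CEBP and 31.1 in GFP, and was not well above background in either.

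The neighbourhoods of Igf2r, Ndn and Mest were chosen for description after their values were seen. Airn, the noncoding RNA that silences the paternal Igf2r copy in mouse, read 641 intensity units in A-CEBP and 701 in GFP. That difference of -0.18 was within its scanner error of 0.20. Another Airn probe read 15.9 in A-CEBP and 13.8 in GFP, not well above background in either. Slc22a2, a cation transporter gene, and Mas1, a receptor gene, lie in that cluster and differed by 0.60 and 0.52. Near Ndn, Snrpn differed by 0.20 at its brightest probe and by 0.54 at another. A further Snrpn probe, well above background in A-CEBP only, was 1.99-fold higher there as a plain ratio to its dim GFP reading. Ube3a and Peg12 each differed by 0.20, Mkrn3 by -0.11 and Atp10a by -0.56. Near Mest, Copg2 differed by 0.03 and Cep41 by 0.14.

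**Figure D5:**
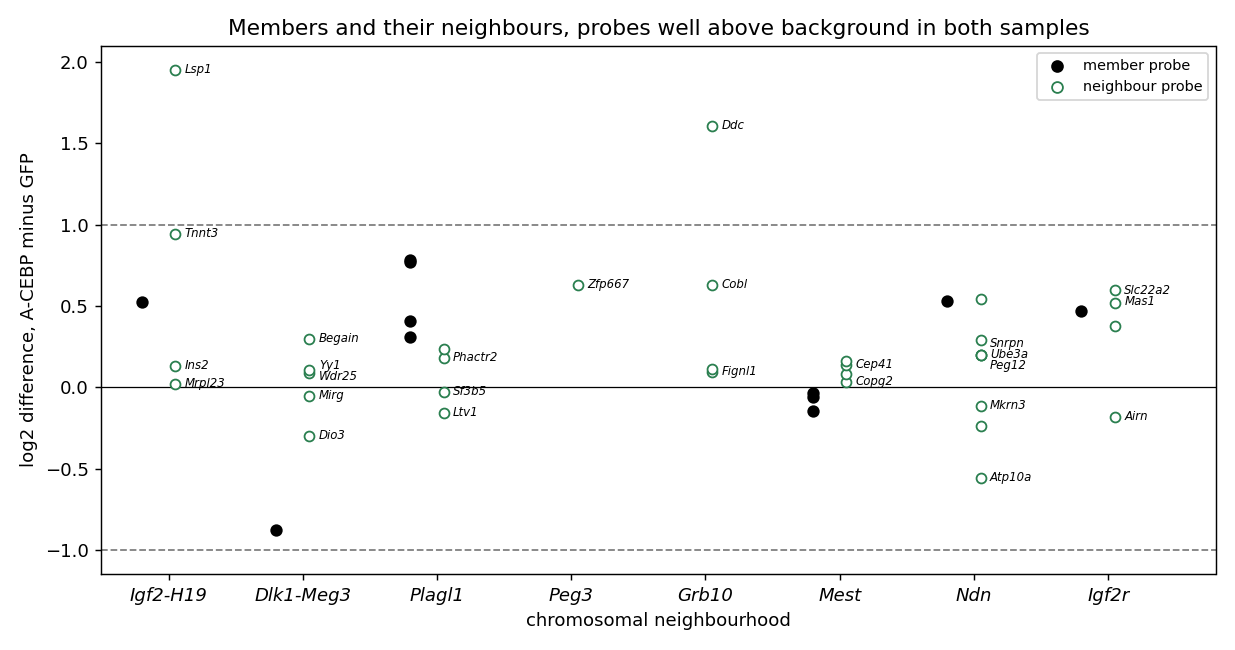
Log2 difference (A-CEBP minus GFP) of members (filled) and their chromosomal neighbours (open), by neighbourhood, for probes well above background in both samples; a name stands beside the brightest probe of a neighbour, and dashed lines mark 2-fold. Lsp1 at 1.95 and Ddc at 1.61 are the points beyond 2-fold, and Grb10 and Peg3 have no filled point because they were not well above background in GFP.

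A further list held other imprinted or network genes, chosen by name and not by distance from the members. These genes differed by less than 2-fold wherever both samples were well above background. Of 32 listed, 31 had a probe and 22 were well above background in both samples; 0 of the 22 were 2-fold apart (2.96% of named genes), 14 were positive and 8 negative (59.1% of named genes were positive), and the median difference was 0.14. Cdkn1c, a maternally expressed inhibitor of the cell cycle needed for cartilage maturation in mouse, read 4069 intensity units in A-CEBP and 2212 in GFP, a difference of 0.83 (1.77-fold), and was the 1 gene of the 22 past 1.5-fold, where 8.51% of named genes were. Peg10, a retrotransposon-derived gene, differed by -0.58 at low signal (44.1 units in A-CEBP and 63.4 in GFP). Rasgrf1, a Ras exchange factor, differed by 0.54, and Cd81, a tetraspanin, by 0.38.

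Among 18 factors that set or keep imprints, 16 were well above background in both samples, with a median difference of 0.08. None was 2-fold higher and 1 was 2-fold lower, where 1.26% and 1.7% of named genes were. Dnmt3l, the cofactor of the de novo DNA methyltransferases in germ cells, read 88.8 intensity units in A-CEBP and 236 in GFP, a difference of -1.46 (2.75-fold lower in A-CEBP). Dnmt3a, a methyltransferase that it assists, differed by 0.54 (2464 units in A-CEBP and 1635 in GFP). The demethylating enzymes Tet1 and Tet3 differed by 0.59 and 0.34, though a second Tet1 probe gave 0.11 and a second Tet3 probe 0.07. Tet2, of the same family, was slightly lower in A-CEBP, by -0.15 (1299 units in A-CEBP and 1389 in GFP) and -0.16 at its other probe.

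A list of 21 ligand and receptor partners of Igf2, Igf2r and Dlk1 was read as well. Most of them bind, carry or relay IGFs or belong to the Notch pathway, and M6pr and Lrp6 were also listed. Of the 21, 19 were well above background in both samples, and the median difference was 0.16. Of the 19, 1 was 2-fold higher and 2 were 2-fold lower, beside 1.26% and 1.7% of named genes. Igfbp3, a secreted protein that binds IGFs, read 105 intensity units in A-CEBP and 388 in GFP, a difference of -1.94 (3.83-fold lower in A-CEBP). Igf2bp2, a protein that binds Igf2 mRNA, read 650 in A-CEBP and 1833 in GFP by its brighter probe (-1.55) and 438 in A-CEBP and 1361 in GFP by the other (-1.69). Both Igf2bp2 probes were thus lower in A-CEBP while the Igf2 probe was higher. Hes1, a target of Notch signalling, read 129 in A-CEBP and 54.9 in GFP, a difference of 1.18, at low signal in both. Irs1, the docking protein beneath the IGF1 and insulin receptors, differed by 0.63 at its brighter probe and by 1.36 at the other, and the receptor gene Igf1r by 0.38.

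Other cell types were read through their markers. Of 5 adipocyte markers, 4 were well above background in A-CEBP and 2 in GFP, and Cidec was in neither. Adipoq and Plin1 were so marked in A-CEBP only, and both were dim. Adipoq read 33.9 units in A-CEBP and 33.1 in GFP, nearly equal, and Plin1 45.6 and 29.8 in the same order. The unequal floors of the arrays also bear on these counts. The summed signal was 7.50 times the 75th percentile in A-CEBP and 8.77 times in GFP, and the median difference of the 2 seen in both was -0.80. Those 2 went opposite ways, Fabp4, a fatty acid carrier, by -1.92 and Pparg, the adipocyte nuclear receptor, by 0.31. All 5 markers of dividing cells were well above background in both samples, with a median difference of -0.10. What these shifts or the chondrocyte markers contribute to the differences of the members was not tested.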

How the data were processed

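Spot intensity in the deposited scanner output is linear, background-subtracted and detrended within each array, per the file headers; Agilent Feature Extraction 10.10.1.1 is named in the submitters' processing notes. The headers give 1 slide and 1 scan for both arrays. The authors' deposited table holds the same intensity times 1 constant per array (1.15 for A-CEBP, 1.24 for GFP; column medians 67.4 and 70.9), linear and not centred.

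Control spots and 293 spots marked as outliers were left out (0 of them member spots), log2 was taken, the 75th percentile of each array was subtracted, and replicate spots were averaged. Being well above background required the mark on over 50% of a probe's spots. A gene took its brightest probe among those so marked in both samples. Accessions were matched to a RefSeq table of GRCm38.p6 (27229 of 55671 probes had 1 gene). Having 1 array per group limits the precision.

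The text names every member probe, every listed gene 2-fold apart, the 4 largest differences of each list, and all neighbours of members 1.5-fold apart; further names, such as Igf1r, were added after their values were seen. Members and lists were chosen with earlier results of these data known. Alternatives were normexp (limma 3.58.1, R 4.3.3, offset 50, on median spot signals), no scaling, quantile and spike-in scaling, the authors' values, no detection filter, all spots kept, and the median over probes. The steps were tested on simulated data.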

Additional observations from a re-analysis of the deposited data

How the results depend on the processing

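Over 8 alternatives, 126 values of 16 results were recomputed: 105 moved by less than the measurement spread or, for counts, by no more than 1.5 times, 21 moved by more, and 0 that passed a fold rule changed sign. Keeping all spots could not move a member, since 0 member spots were marked as outliers. No scaling, spike-in scaling and the authors' values only shift every gene by 1 shared constant, apart from rounding. The tally is therefore not a count of independent checks. Counts that moved by exactly 1.5 times were the members at 1.5-fold without scaling (3, with Ndn), the neighbours at 2-fold with spike-in scaling (3) and the ligand and receptor partners at 2-fold with normexp (2). Without the detection filter 3 members passed 2-fold and 5 passed 1.5-fold, as did 1486 named genes, 1 other imprinted gene and 5 ligand and receptor partners at 2-fold, since dim readings then count. With normexp 1 member passed 1.5-fold and 271 named genes passed 2-fold, and the log2 bounds were 0.88 for Grb10 and 0.54 for Peg3, both under 2-fold. That setting adds an offset of 50 units to every spot, which by itself narrows log2 differences between dim readings. How much of each move came from the offset was not tested. Scaling by 280 spike-in spots moved the median of all named genes to 0.27, so that 5 members passed 1.5-fold, their median was 0.72, 1 other imprinted gene passed 2-fold, and 350 named genes were 2-fold higher and 173 lower (66.9% higher, against 42.4% by the 75th percentile). Relative to the median of all named genes, Igf2 stood at 0.48, Plagl1 at 0.72, Mest at -0.08 and Dlk1 at -0.92 under either scaling. These values could not differ, since the scalings differ by 1 constant per array, which moves the median and the genes alike. The median over probes put Plagl1 at 0.59. No paired analysis was possible because each group held 1 sample, and for the same reason no sample could be left out. Grb10, Peg3, Meg3 and Dlk1 rest on spots near background, and Igf2 and Ndn on 1 spot each.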
